A study of Mus musculus with 4 samples.

Results

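The circadian clock and clock output genes of the hippocampal CA1 field were measured at 4 times of tissue extraction: the activators Arntl and Clock, the repressors Per1, Per2, Per3, Cry1 and Cry2, the output transcription factors Dbp and Tef, and Rora, an activator of the Arntl loop. They were taken as every probe set that the array's annotation assigns to 1 of these 10 symbols alone. This gave 13 probe sets of 12488 on the array, 3 for Cry1, 2 for Rora and 1 for each of the other genes. All 10 genes were on the array. The tissue was total RNA of CA1, the output field of the hippocampal circuit, from mice (C57BL/6J, male, young) whose treatment was handling only, with no shock. There were 4 single-channel arrays, with 1 array at each of 1, 2, 4 and 6 hr. The hours are counted from the last shock of a separate set of mice, whose arrays were not analysed here. The number of mice behind an array, the hour of day and the light cycle are not stated in the labels.

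The mammalian clock is a feedback loop of transcription. The proteins of Arntl (also called Bmal1) and Clock pair up and switch on the Per and Cry genes through a DNA sequence called the E-box, and the PER and CRY proteins then return to block that pair. Rora and the Nr1d genes act on Arntl in a second loop, Rora as activator and Nr1d1 and Nr1d2 as repressors, and Dbp and Tef carry the rhythm to other genes through the D-box. The master clock lies in the suprachiasmatic nucleus, and the hippocampus runs the same genes as a peripheral oscillator.

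Of the 10 genes, 9 had a promoter window in the RefSeq table (GRCm38.p6), from 250 bases before to 50 bases after the annotated start, with 14 windows in all because some genes have several starts. Per2 is named only. The windows were searched on both strands for the E-box CACGTG, a variant of it, CACGTT, the D-box TTATGTAA and the core site AGGTCA that ROR and NR1D proteins read. The E-box was found in 4 of the 14 windows (Per1, Cry1 and both starts of Tef), where 7.15% of all 32851 windows held it. The variant was found in 2 of the 14 (Cry1 and Cry2), where 4.68% of all windows held it. The D-box was found in 1 of the 14 (Per3), against 0.938% of all windows. The core site was found in 3 of the 14 (Arntl, Clock and Per1), against 16.3% of all windows. No matches of different motifs overlapped in these windows. The stretches below show matches to the E-box or the D-box in repressor and output genes, and the hourly values of these genes are compared further on. Each has 100 bases, and the capitals mark the E-box in Per1, Cry1 and Tef and the pair of D-boxes in Per3.
Per1 (GRCm38.p6, chr11:69098736-69098835, plus strand): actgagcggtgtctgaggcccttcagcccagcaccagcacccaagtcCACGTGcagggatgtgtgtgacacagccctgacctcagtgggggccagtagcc
Cry1 (GRCm38.p6, chr10:85185062-85185161, minus strand): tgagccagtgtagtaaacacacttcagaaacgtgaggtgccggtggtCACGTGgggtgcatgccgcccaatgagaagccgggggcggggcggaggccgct
Tef (GRCm38.p6, chr15:81802499-81802598, plus strand): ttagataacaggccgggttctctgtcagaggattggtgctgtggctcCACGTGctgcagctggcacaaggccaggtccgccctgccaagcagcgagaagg
Per3 (GRCm38.p6, chr4:151044794-151044893, minus strand): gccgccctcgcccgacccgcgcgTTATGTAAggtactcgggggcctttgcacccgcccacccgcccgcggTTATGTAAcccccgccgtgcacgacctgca
The E-box began 166 bases before the start of Per1, 60 before that of Cry1 and 127 before that of Tef. The D-boxes of Per3 began 205 and 158 bases before its start. A match describes these letters and does not show that a factor bound there.

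Values are the deposited intensities on a linear scale. A floor was set at 54.6, the 25th percentile of the whole table, lower values were raised to it, and differences, slopes and folds of pairs of hours were taken from log2 values on that scale. A probe set's level depends on its probes, so levels were compared between hours for 1 probe set and never between genes. Among the arrays, the median intensity ran from 173 at 2 hr to 204 at 1 and 4 hr, and the share of values under the floor from 23.4% to 28.3%. The ratio of the 3' to the 5' control for Gapdh was 4.84, 7.56, 6.25 and 4.89 at 1, 2, 4 and 6 hr. That for Actb was 3.44, 3.20, 3.24 and 2.99. The part of RNA or labelling quality in the hourly values was not tested. The CA1 label was checked against 8 markers of its pyramidal neurons. Of these, 5 were on the array, and all 5 lay above the floor on every array, with a summed intensity of 6884 to 8754. The markers of neighbouring tissue were above the floor on every array too, with 4 of 4 present for CA3, 5 of 6 for the dentate gyrus, 3 of 3 for thalamus and 3 of 3 for choroid plexus, so this check does not tell CA1 from a dissection that also holds them. Of 7 markers of the suprachiasmatic nucleus, 5 were present and 3 of them lay under the floor on every array (Avp, Six3 and Six6). Avp, the neuropeptide of that nucleus, read 27.8 to 44.7.

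A total of 10 of the 13 probe sets, 1 for each gene, lay above the 40th percentile of mean log2 level and entered the test. The 3 others are a Rora probe set (7.5, 16.7, 14.1 and 8.4 at 1, 2, 4 and 6 hr), a Cry1 probe set (6.7, 1.8, 3.8 and 13.5) and another Cry1 probe set (92.6, 40.7, 11.5 and 11.3). The first pair lay under the floor on all 4 arrays, and the last was above it only at 1 hr. No clock gene passed the test of a straight line over the hours: 0 of 10 had an adjusted p under 0.05 in limma, as did 0 of all 7453 probe sets tested (0%). At an unadjusted p under 0.05 there was 1 of 10, Rora, beside 382 of all probe sets (5.13%). Ordinary least squares gave 0 of 10 both after adjustment and unadjusted. The slope was above 0 for 6 of 10 (50.9% of all probe sets) and below 0 for 4 (49.1%). Their median slope was 0.021 log2 units per hr, where all probe sets tested had 0.0015. Each hour has 1 array, so no pair of hours could be tested. Separate animals behind the arrays are not stated, so each p-value reflects the scatter of these arrays around the line alone. Part of that scatter may be technical, and it also holds any change over the hours that is not straight. In limma it is moderated by the scatter of all probe sets tested.

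**Figure D1:**
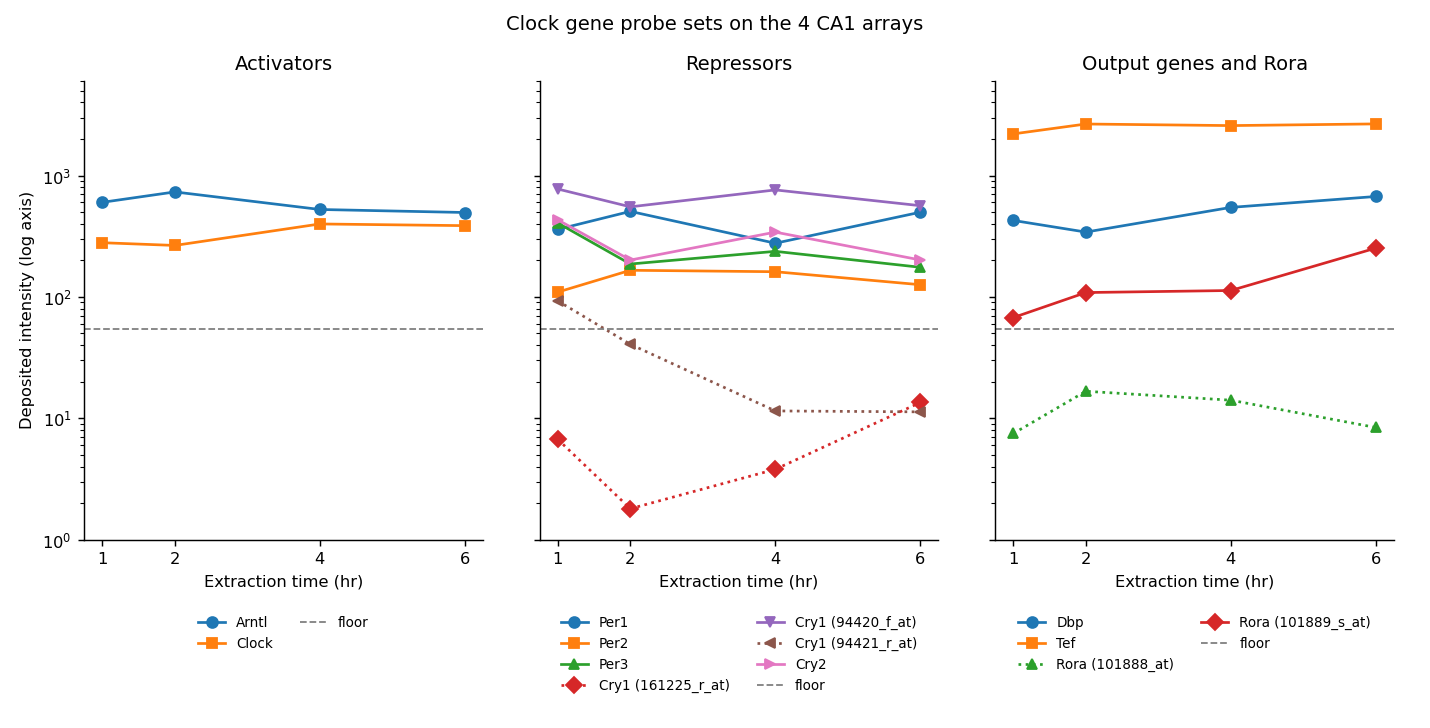
Deposited intensity (log axis) of all 13 clock gene probe sets against extraction time in hr, in panels for activators, repressors and output genes with Rora. Each point is 1 array, solid lines are the 10 probe sets tested, dotted lines the 3 under the filter, and the dashed line is the floor of 54.6. Clock, Dbp and the brighter Rora probe set lie higher at 4 and 6 hr than at 1 and 2 hr, Arntl lies lower, and Per3, Cry1 and Cry2 lie higher at 1 and 4 hr than at 2 and 6 hr.

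The activators, whose proteins form the pair that drives the loop, lay in opposite directions. Arntl read 601, 732, 525 and 496 at 1, 2, 4 and 6 hr. Both later arrays were below both earlier ones, and 2 hr was the highest. The difference of 4 and 6 hr from 1 and 2 hr was -0.38 log2 units, with a slope per hr of -0.086 log2 units ± 0.068 (SE, with an adjusted p = 1.00 in limma).

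Clock encodes the partner of ARNTL in that pair, and it read 279.5, 265, 399 and 386. Both later arrays were above both earlier ones, which lay close together. The level at 4 and 6 hr was 1.44-fold that at 1 and 2 hr, and the slope per hr was 0.12 log2 units ± 0.067 (SE, with an adjusted p = 1.00 in limma). The difference in slope between Clock and Arntl was not tested. The median slope of the 2 activators was 0.017 log2 units per hr, between an Arntl value below 0 and a Clock value above 0.

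The repressors showed different patterns. Cry1, Cry2 and Per3 were higher at 1 and 4 hr than at 2 and 6 hr, whereas Per1 was ordered the other way round and Per2 was highest at 2 and 4 hr. Slopes were above 0 for 2 of the 5 (50.9% of all probe sets) and below 0 for 3 (49.1%), and their median was -0.045 log2 units per hr.

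Cry1, a cryptochrome that blocks the CLOCK and ARNTL pair, read 774, 552, 761 and 564 through its bright probe set. The pair of high hours, 1 and 4 hr, lay within 12.9 intensity units of each other, and the pair of low hours within 12.2. The level at 1 and 4 hr was 1.37-fold that at 2 and 6 hr. The name of this probe set marks it as one whose probes can match related sequences. The slope per hr was -0.045 log2 units ± 0.077 (SE, with an adjusted p = 1.00 in limma). The Cry1 probe set that exceeded the floor at 1 hr alone was under it at 4 hr, where the bright one was high.

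Cry2, the second cryptochrome, read 431, 201, 342 and 201.5. The low values at 2 and 6 hr were almost equal, and the level at 1 and 4 hr was 1.91-fold that at 2 and 6 hr. The range was 1.10 log2 units, larger than that of 78.9% of the probe sets tested. The slope per hr was -0.13 log2 units ± 0.11 (SE, with an adjusted p = 1.00 in limma).

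Per3, a period gene that is dispensable for the core rhythm, read 406, 187, 237 and 175. The 1 hr array stood highest, and the other 3 lay between 175 and 237. The level at 1 and 4 hr was 1.71-fold that at 2 and 6 hr. The 6 hr value was lower than the 1 hr value by 1.21 log2 units, and the slope per hr was -0.17 log2 units ± 0.10 (SE, with an adjusted p = 1.00 in limma).

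Per1, a period gene that neuronal activity and glucocorticoids can induce, read 360, 506, 277 and 498. The values at 2 and 6 hr lay close together and above those at 1 and 4 hr, and the difference of 1 and 4 hr from 2 and 6 hr was -0.67 log2 units. The slope per hr was 0.026 log2 units ± 0.10 (SE, with an adjusted p = 1.00 in limma). Per1 and Cry1 had opposite orders on these arrays. Both promoter windows hold the E-box shown above, as do those of Tef, which like Per1 was higher at 2 and 6 hr. The part of the E-box in these orders was not tested.

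Per2, a period gene needed for a stable rhythm in mice, read 110, 166, 161 and 126. The middle hours were higher than the first and the last, so a straight line describes little of it. The slope per hr was 0.015 log2 units ± 0.082 (SE, with an adjusted p = 1.00 in limma).

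The order of 1 and 4 hr above 2 and 6 hr was noticed after the values were seen. It held for 3 of the 10 clock genes tested and for 18.9% of all probe sets, and the reverse order held for 2 of 10 (Per1 and Tef) and for 14.9% of all probe sets. The array medians followed it too, at 204 at 1 hr and 204 at 4 hr beside 173 at 2 hr and 198 at 6 hr. After quantile normalization, which gives all arrays one distribution, the difference of 1 and 4 hr from 2 and 6 hr was 0.46 log2 units for Cry1, 0.84 for Cry2, 0.68 for Per3 and -0.72 for Per1. After a shift to a common median it was 0.32, 0.79, 0.64 and -0.81 in the same gene order, where the median of all probe sets tested was -0.13. The summed intensity of 3 thalamus markers of 4 listed, Rora left out, was 1590.5 and 2304 at 1 and 4 hr and 1055 and 1543 at 2 and 6 hr. That of the 5 suprachiasmatic markers present was 719 and 851 at 1 and 4 hr and 661 and 604 at 2 and 6 hr. That of the 4 CA3 markers present of 6 listed was 4154 and 3225 at 1 and 4 hr and 2805 and 2784 at 2 and 6 hr. The sums ran the other way for the 5 CA1 markers present of 8, at 6884 and 6960 at 1 and 4 hr and 8754 and 7314.5 at 2 and 6 hr, and for the 6 dentate markers, at 4096 and 3953 at 1 and 4 hr and 4362 and 4915 at 2 and 6 hr. Taken singly, 2 of 3 thalamus markers, 1 of 5 suprachiasmatic markers and 1 of 4 CA3 markers were higher at 1 and 4 hr, and 1 of 5 CA1 markers and 3 of 6 dentate markers were higher at 2 and 6 hr. Against the sum of its list, 1 dentate marker (Lct) was higher at 1 and 4 hr. Likewise 1 suprachiasmatic marker (Six3, under the floor on every array) was higher at 2 and 6 hr. The part of these shifts in the clock values was not tested.

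The output genes and Rora all had slopes above 0 (3 of 3), beside 50.9% of all probe sets. All 3 were highest on the 6 hr array, as were 23.2% of all probe sets, but for Tef the values at 6 hr (2661) and 2 hr (2656) were almost equal. Their median slope was 0.17 log2 units per hr.

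Dbp, a transcription factor that the CLOCK and ARNTL pair drives directly, read 426, 342, 546 and 672. Both later arrays were above both earlier ones, with the lowest value at 2 hr and the highest at 6 hr. The level at 4 and 6 hr was 1.59-fold that at 1 and 2 hr, and the slope per hr was 0.17 log2 units ± 0.072 (SE, with an adjusted p = 0.973 in limma). The range of Dbp, 0.97 log2 units, was larger than that of 73.6% of the probe sets tested.

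Tef, a relative of Dbp that reads the same D-box, was the most even of the clock genes. It read 2202, 2656, 2577 and 2661. The last 3 arrays lay within 83.7 units of each other and the 1 hr array was the lowest, a range of 0.27 log2 units that exceeded that of 10.5% of the probe sets tested. The slope per hr was 0.040 log2 units ± 0.063 (SE, with an adjusted p = 1.00 in limma).

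Rora, a nuclear receptor that activates Arntl and is abundant in thalamus and cerebellum, read 67.6, 109, 113 and 252 through the probe set tested. It was the 1 clock gene of 10 in strictly rising order, as were 4.01% of all probe sets, and 0 of 10 were in strictly falling order (3.37%). It was also the 1 clock gene with an array at least 1 log2 unit above each of the others (1.36% of all probe sets), that at 6 hr, and 0 of 10 had an array as far below (6.37%). The 6 hr value was 3.73-fold the 1 hr value, and the slope per hr was 0.33 log2 units ± 0.080 (SE, with an adjusted p = 0.883 in limma and an unadjusted p = 0.00831). The 1 hr value lay little above the floor. The name of this probe set marks probes that can match more than 1 transcript, and the other Rora probe set, under the floor at every hour, gave no order. The summed thalamus markers read 1590.5, 1055, 2304 and 1543 at 1, 2, 4 and 6 hr. One of the 3, Lef1, was higher on both later arrays, at 850 and 626.5 at 4 and 6 hr and 266 and 181 at 1 and 2 hr, and the part of thalamic tissue in the Rora values was not tested. Without the 6 hr array the Rora slope was 0.22 log2 units per hr, 1.55 times smaller, and with the floor at the 40th percentile it was 0.19, 1.74 times smaller.

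**Figure D2:**
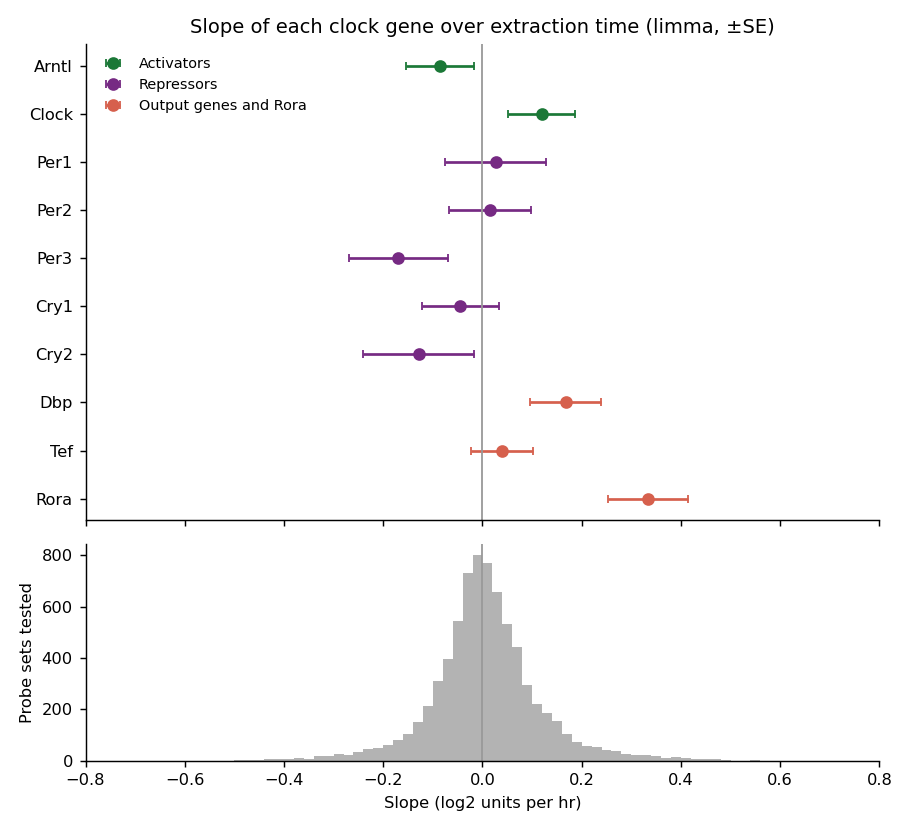
Upper panel, slope of each clock gene tested in log2 units per hr (points, with bars of ±SE from limma, coloured by role). Lower panel, the slopes of all 7453 probe sets tested as a histogram. Rora, at 0.33, lies in the right tail of the histogram, and the other 9 genes lie between -0.17 and 0.17.

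Taking the 4 and 6 hr arrays together, 3 of 10 clock genes (Clock, Dbp and Rora) lay above both earlier arrays, as did 18.0% of all probe sets. Arntl alone, 1 of 10, lay below both, as did 16.1% of all probe sets. At least 1 log2 unit separated 6 hr from 1 hr for Rora upwards (1 of 10, beside 5.17% of all probe sets) and for Per3 and Cry2 downwards (2 of 10, beside 4.92%). The range over the 4 arrays was at least 1 log2 unit for 3 of 10 (Rora, Per3 and Cry2), beside 25.3% of all probe sets, and its median was 0.73 log2 units for the clock genes and 0.64 for all probe sets tested. The spread of the clock genes was thus near that of the array as a whole. The highest array was that of 1 hr for 3 of 10 clock genes (25.9% of all probe sets), 2 hr for 3 (24.4%), 4 hr for 1 (26.5%) and 6 hr for 3 (23.2%). The lowest was that of 1 hr for 3 (24.3%), 2 hr for 4 (29.0%), 4 hr for 1 (24.3%) and 6 hr for 2 (22.4%). The division into later and earlier arrays was also seen in the 3' control for 18S ribosomal RNA, at 3325 and 3381 at 4 and 6 hr and 1383 and 1150.0 at 1 and 2 hr. The 5' control for the same RNA did not divide that way, at 289 and 572 at 4 and 6 hr and 440 and 133 at 1 and 2 hr. The summed level of 7 oligodendrocyte markers of 8 listed was 23012 and 18004 at 4 and 6 hr and 24497 and 24148 at 1 and 2 hr. Of these 7, 4 were lower on both later arrays (Mobp, Mbp, Mog and Cldn11) and 2 were higher (Sox10 and Cnp). Cnp was above the floor only at 6 hr. That of 7 astrocyte markers of 8 listed was 23935 and 23849 at 4 and 6 hr and 24098 and 25944 at 1 and 2 hr, with 2 of the 7 lower and 1 higher on both later arrays. Of the 3 choroid plexus markers present of 6 listed, 1 (Aqp1) was lower on both later arrays and 0 were higher. Their part in the clock values was not tested. In bulk tissue, fewer cells of a type and less RNA per cell cannot be told apart.

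**Figure D3:**
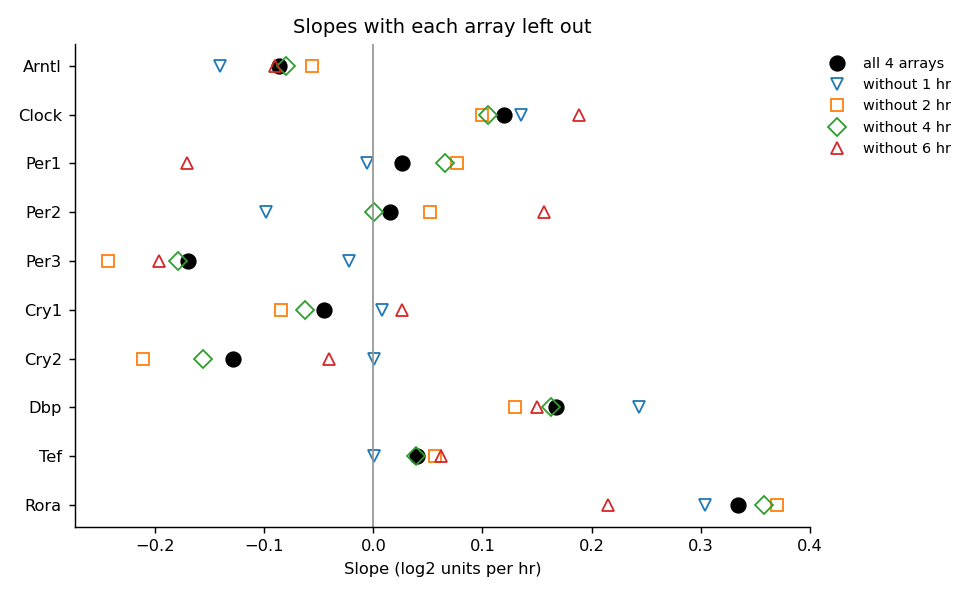
Slope of each clock gene tested in log2 units per hr, with all 4 arrays (filled circles) and with the array of 1, 2, 4 or 6 hr left out (open symbols). Arntl and Per3 stay below 0 and Clock, Dbp, Tef and Rora above 0 in each case shown, and the symbols of Per1, Per2, Cry1 and Cry2 fall on both sides of 0.

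The direction of the slopes of Per1, Per2, Cry1 and Cry2 depended on single arrays. With each array left out in turn, the slope of Per3 lay between -0.24 and -0.022 log2 units per hr, and the value nearest 0 was that without the 1 hr array. Without the 1 hr array the slope of Cry2 was 0.00054, and that of Per2 was -0.099. Tef, at 0.00069 without the 1 hr array, was close to 0 as well. Those of Dbp ran from 0.13 to 0.24, those of Clock from 0.10 to 0.19 and those of Arntl from -0.14 to -0.057 log2 units per hr.

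The wider clock pathway was described from a list of 38 other genes, of which 24 were on the array and 20 had their brightest probe set tested. None of the 20 passed limma's test after adjustment, and 0 had an unadjusted p under 0.05. Slopes were above 0 for 12 (50.9% of all probe sets) and below 0 for 8 (49.1%), and the median was 0.018 log2 units per hr beside 0.0015 for all probe sets.

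Other members of the loops had 5 of 6 slopes above 0 (median 0.019), beside 50.9% of all probe sets. Timeless, the mammalian relative of a fly clock gene, read 366, 249, 339 and 426 at 1, 2, 4 and 6 hr, and Nr1d2, a repressor of Arntl, read 377, 508, 444 and 550.0. These had the 2 highest differences of later from earlier hours in this group, 0.33 and 0.17 log2 units. Bhlhe40, an E-box repressor that neuronal activity induces, read 611, 1302, 739 and 859 and stood highest at 2 hr, as did 24.4% of all probe sets. Its difference of later from earlier hours was -0.16 log2 units. Tipin, the partner of TIMELESS in replication, read 124, 91.7, 22.6 and 113, was under the floor at 4 hr and did not enter the test.

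The enzymes that modify or degrade clock proteins had 7 of 10 slopes above 0 (median 0.039), beside 50.9% of all probe sets. Through the brightest probe set of each, 6 of 10 of these enzymes were lowest at 1 hr, as were 24.3% of all probe sets. The casein kinases that phosphorylate PER proteins were among them: Csnk1d read 1303, 1923, 1992 and 1881. Csnk1e read 668, 1496, 1385 and 1060. In both, the 1 hr array was the lowest. The 3 other Csnk1d probe sets were lowest at 6, 2 and 4 hr, so this order rests on the brightest one. Csnk2a1, Csnk2a2 and Fbxw11 were also lowest at 1 hr through the brightest probe set. The order of their other probe sets was not compared. Btrc, a ubiquitin ligase subunit that marks PER proteins for degradation, read 718, 278, 374 and 485 through its brightest probe set. The other Btrc probe set read 381, 211, 328 and 235. Both were highest at 1 hr and lowest at 2 hr, and their order of 4 and 6 hr differed. Ppp1cb, a phosphatase subunit, read 1373, 1736, 1427 and 1359, with a difference of later from earlier hours of -0.15 log2 units. That of Btrc was -0.070 through its brightest probe set.

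The clock target genes on the list had 4 of 4 slopes below 0 (median -0.082), where 49.1% of all probe sets had such a slope. Ppara, a nuclear receptor of lipid metabolism, read 312, 206, 133 and 204, and Nampt, the rate-limiting enzyme of NAD salvage, read 394, 374.5, 286 and 294. Both later values of each were below both earlier ones, with differences of -0.62 and -0.41 log2 units. Vip, a neuropeptide of the suprachiasmatic nucleus and of hippocampal interneurons, read 145, 177, 210.1 and 112, with a difference of -0.063. Avp, already given as under the floor, had a difference of 0 on the floored scale.

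**Figure D4:**
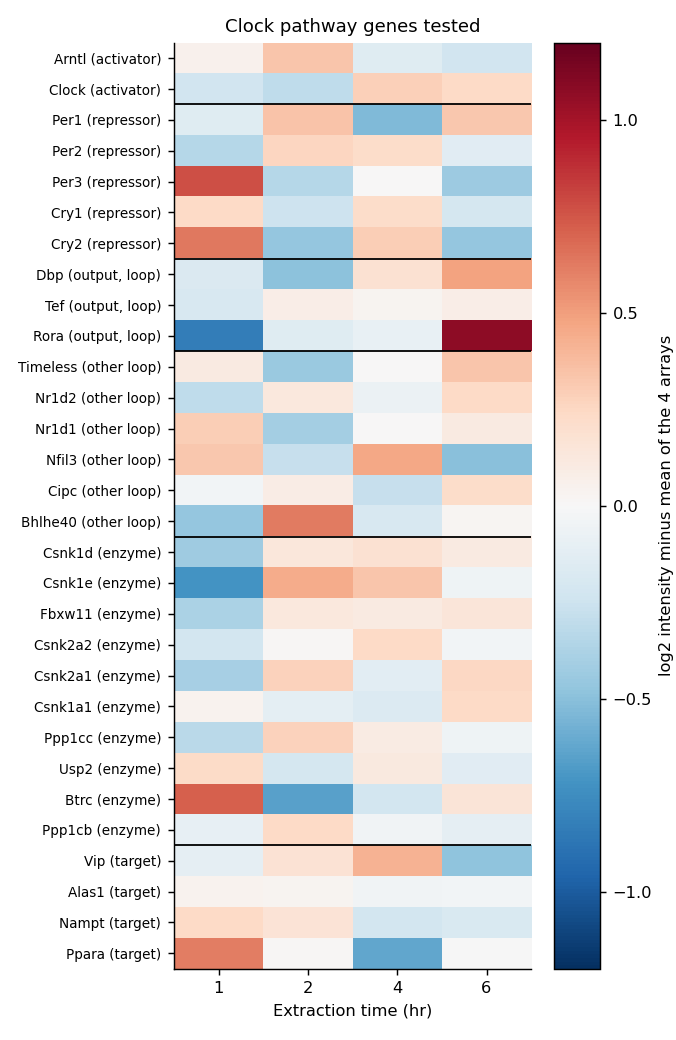
Log2 intensity minus the mean of the 4 arrays (colour, from -1.2 to 1.2) for the 10 clock genes and the 20 other clock pathway genes tested, in rows grouped by role, against extraction time in hr. Each cell is 1 array. Cry1, Cry2 and Per3 have paler or redder cells at 1 and 4 hr than at 2 and 6 hr, an order that 18.9% of all probe sets held. Through 1 probe set each, 4 of the 5 casein kinase rows are blue at 1 hr. The Rora row has its reddest cell at 6 hr.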

How the data were processed

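Each array has 1 intensity per probe set, on a linear scale, as deposited by the authors. The summarisation method and software are not given in the sources used here. After trimming 2% at each end the mean was 500.3 on each array, so the deposited intensities had been scaled to a common level, which is read from the values. No detection calls were used, and the number of arrays limits the precision. Symbols came from the platform annotation (10855 probe sets with 1 symbol, 396 with several, 1237 with none). Control probe sets, 66 in number, did not enter the test.

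Lower values were raised to the floor of 54.6 before log2 was taken. The 7453 probe sets with a mean above the 40th percentile entered limma 3.58.1 in R 4.3.3 (lmFit, eBayes; a straight line over hours, 2 residual degrees of freedom, two-sided, Benjamini-Hochberg over all of them, threshold 0.05). Other genes were named by a rule: the 2 highest and 2 lowest differences of 4 and 6 hr from 1 and 2 hr in each of 3 groups of clock pathway genes, through the probe set of highest mean. The genes and lists were chosen with earlier results of these data known. Any 2 arrays shared 7 to 16 identical values of 12488.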

Additional observations from a re-analysis of the deposited data

How the results depend on the processing

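No clock gene and no other probe set passed limma's test after adjustment under any of 13 alternatives (other scaling, floor, filter, time scale or prior, and each array left out), and ordinary least squares gave 0 as well. The smallest adjusted p of a clock gene under these was 0.686 (Rora, without the 4 hr array). At an unadjusted p under 0.05 all probe sets counted 382 with limma and 333 with ordinary least squares. The unadjusted p of Rora was under 0.05 under 7 of 12 alternatives and not under the other 5: 0.0506 with the floor at the 40th percentile, 0.0597 without the 1 hr array, 0.215 without the 6 hr array, 0.0983 for 4 and 6 hr against 1 and 2 hr, and 0.0804 with the intensity-dependent robust prior. Of 125 slopes recomputed for clock genes, 117 kept their direction and 8 did not, and 6 of 10 genes kept it throughout. With each array left out, slopes ran from -0.17 to 0.076 log2 units per hr for Per1, from -0.099 to 0.16 for Per2, from -0.085 to 0.026 for Cry1 and from -0.21 to 0.00054 for Cry2. Per1 was below 0 without the 1 hr array (-0.0057) and without the 6 hr array (-0.17), and Cry1 was above 0 without each of these (0.0079 and 0.026). For 4 and 6 hr against 1 and 2 hr, expressed per hr, Per1 was at -0.058 and Cry1 at 0.0010. The median slope of the output genes and Rora ran from 0.13 to 0.24 with each array left out, and was 0.24 without the 1 hr array. It was 0.10 both with no filter and with the filter at the 60th percentile, which change which probe sets enter it. That of the activators ran from -0.0027 to 0.049 and that of the repressors from -0.085 to -0.0057. The causes were not tested. The comparison of 1 and 4 hr with 2 and 6 hr under other scalings was chosen after seeing the data. No paired analysis was possible because each hour has 1 array. Signal over background is unknown without detection calls, so the order of the dim Rora and Cry1 probe sets is not resolved.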
